A study of Homo sapiens with 8 samples.

Results

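Zinc finger transcription factors of the ZNF, ZBTB, ZFP and ZSCAN families were followed in 8 clonal isolates of LNCaP, an androgen-responsive human prostate tumor cell line. Members were the genes whose symbol in the array's annotation begins with one of those 4 letter codes, leaving out symbols that end in -AS1. The rule used no measured value. It gave 72 genes on 74 transcript clusters (the array's unit for a gene), out of 4072 named genes and 16377 clusters in the table used here. Where a gene had more than 1 cluster, its brightest was taken. By chromosome, 31 members lie on chromosome 1, 17 on 10, 11 on 12, 10 on 11 and 3 on 14, and the large families of chromosome 19 were not analysed here.

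Control clones 3, 4, 8 and 9 carried a control vector, and *HIST1H1A* clones 2, 8, 9 and 10 stably over-expressed *HIST1H1A*, which encodes the linker histone H1.1. Both groups had been made by lentiviral transduction of LNCaP cells, blasticidin selection and serial dilution to clones, and no other treatment was given. Total RNA of each clone was hybridized to 1 array (Affymetrix, Human Gene 2.0 ST). The authors deposited log2 signals, whose median was between 3.25 and 3.30 on each of the 8 arrays. With 1 array a clone, clonal differences and measurement error cannot be told apart, nor can fewer expressing cells and less RNA per cell. *HIST1H1A* itself was not analysed here, so the over-expression could not be checked against the labels. Of 17 markers listed for luminal prostate and LNCaP cells, 5 were measured (*FOLH1*, *EHF*, *KRT8*, *KRT18* and *CREB3L4*). All 5 fell in *HIST1H1A* clones (limma, adjusted p between 7.2e-06 and 0.020). Their mean log2 signal was 7.32 to 7.90 in the control clones and 4.58 to 4.64 in the *HIST1H1A* clones, and *FOLH1*, which encodes prostate-specific membrane antigen, stood at 2.65 there, below the median of all values. Of listed PC-3 markers, *VIM* and *CD44* rose and *KRT7* did not pass, and of listed HEK293 markers, *VIM* rose and *PAX2* did not pass. The part of these markers in the results below was not tested.

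A C2H2 zinc finger is a short fold held by a zinc ion that reads a few bases of DNA, and these proteins carry such fingers in rows. What a factor does at the site depends largely on its other domains. KRAB domains recruit *TRIM28* and through it heterochromatin proteins, and many KRAB factors silence transposable elements. BTB (POZ) domains pair the proteins and bind NCOR, SMRT and histone deacetylase corepressors, as in *ZBTB16*, whose gene responds to androgen in prostate cells. SCAN domains mainly let the proteins pair. By the lists used here, 25 members have a KRAB domain (3 of them, *ZNF215*, *ZNF202* and *ZNF496*, also a SCAN domain), 13 a BTB domain, 1 (*ZSCAN20*) a SCAN domain alone and 25 neither, and 8 were in no group. The 8 include *ZBTB8OS*, a cofactor of tRNA ligation that shares only its name with the family, the read-through transcript *ZFP91-CNTF*, and the antisense RNAs *ZNF32-AS2*, *ZNF32-AS3* and *ZNF503-AS2*. The rest are *ZNF219*, *ZNF385A* and *ZNF410*, which the lists leave out, so the shares by domain below do not cover them. A cluster was joined to its gene by name alone and its strand was not checked. Membership rests on the name too, and whether each protein carries C2H2 fingers was not checked. Close copies such as *ZNF33A* and *ZNF33B* or *ZFP69* and *ZFP69B* may share probes, which makes their separate values uncertain.

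The promoters of the members on which the results turn are shown as the 250 bases before the start site, from RefSeq (GRCh38.p14). They belong to 5 members that passed the test, to a neighbour each of 2 of these, and to 1 KRAB member. Capitals mark matches, on either strand, to the GC box (GGGCGG), the E-box bound by *ZEB1* (CACCTG), the hexamer of the androgen receptor element (AGAACA), an ETS site (CCGGAAG) and the core of the *ZNF143* site (ACTACAA). No motif contains another, and matches to the GC box may overlap each other. *ZBTB39* (chr12:57006547-57006796, minus strand) rose and *ZBTB7B* (chr1:155002399-155002648, plus strand) and *ZNF672* (chr1:248837974-248838223, plus strand) fell. *ZNF215* (chr11:6926176-6926425, plus strand) rose and its neighbour *ZNF214* (chr11:7020347-7020596, minus strand) did not pass, and the same holds for *ZBTB8B* (chr1:32464822-32465071, plus strand) and *ZBTB8A* (chr1:32539177-32539426, plus strand). *ZNF268* (chr12:133181245-133181494, plus strand) stands for the KRAB factors that were high in control clone 9.
ZBTB39: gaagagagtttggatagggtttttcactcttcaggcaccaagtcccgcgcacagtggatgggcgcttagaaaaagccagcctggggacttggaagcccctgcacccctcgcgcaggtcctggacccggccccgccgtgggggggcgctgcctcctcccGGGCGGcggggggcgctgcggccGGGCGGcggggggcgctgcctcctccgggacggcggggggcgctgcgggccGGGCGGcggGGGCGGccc
ZBTB7B: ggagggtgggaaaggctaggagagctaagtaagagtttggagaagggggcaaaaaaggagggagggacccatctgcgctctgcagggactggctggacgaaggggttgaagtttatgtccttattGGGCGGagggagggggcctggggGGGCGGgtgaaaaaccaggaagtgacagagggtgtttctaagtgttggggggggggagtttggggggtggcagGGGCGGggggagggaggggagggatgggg
ZNF672: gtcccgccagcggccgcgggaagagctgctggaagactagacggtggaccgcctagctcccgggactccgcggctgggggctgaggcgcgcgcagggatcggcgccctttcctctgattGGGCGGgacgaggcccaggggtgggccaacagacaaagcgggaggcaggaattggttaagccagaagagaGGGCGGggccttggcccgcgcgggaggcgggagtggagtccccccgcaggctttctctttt
ZNF215: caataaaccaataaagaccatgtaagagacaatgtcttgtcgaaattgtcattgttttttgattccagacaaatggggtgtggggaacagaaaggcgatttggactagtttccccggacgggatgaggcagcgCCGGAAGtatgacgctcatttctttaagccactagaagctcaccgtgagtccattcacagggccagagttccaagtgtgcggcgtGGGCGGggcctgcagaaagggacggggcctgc
ZNF214: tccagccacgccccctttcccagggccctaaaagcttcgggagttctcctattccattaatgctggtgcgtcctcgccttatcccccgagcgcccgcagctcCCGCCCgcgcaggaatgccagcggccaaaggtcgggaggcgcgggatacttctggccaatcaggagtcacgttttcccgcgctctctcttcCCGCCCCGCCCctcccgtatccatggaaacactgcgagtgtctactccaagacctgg
ZBTB8B: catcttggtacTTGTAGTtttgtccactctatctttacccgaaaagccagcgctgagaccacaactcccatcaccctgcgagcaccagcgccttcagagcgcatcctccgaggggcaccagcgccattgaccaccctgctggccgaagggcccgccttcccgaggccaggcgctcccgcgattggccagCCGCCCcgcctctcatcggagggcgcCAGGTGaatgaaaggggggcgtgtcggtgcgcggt
ZBTB8A: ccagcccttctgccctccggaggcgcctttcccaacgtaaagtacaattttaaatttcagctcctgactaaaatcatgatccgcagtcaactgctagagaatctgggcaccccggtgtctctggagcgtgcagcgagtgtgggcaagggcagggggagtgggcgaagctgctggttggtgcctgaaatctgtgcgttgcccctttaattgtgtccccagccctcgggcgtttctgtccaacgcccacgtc
ZNF268: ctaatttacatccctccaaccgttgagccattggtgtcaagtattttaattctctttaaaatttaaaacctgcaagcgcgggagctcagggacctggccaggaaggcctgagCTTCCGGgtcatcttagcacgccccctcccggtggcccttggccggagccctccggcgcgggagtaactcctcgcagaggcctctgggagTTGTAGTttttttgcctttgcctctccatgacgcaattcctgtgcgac

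A promoter was matched for 66 of the 72 members. *ZBTB16*, *ZBTB17*, *ZBTB40*, *ZBTB41*, *ZNF385A* and *ZNF488* had no entry. The GC box stood in 39 of the 66 (59.1%) and in 42.3% of 27305 promoters of the table. It stood in the promoters of 8 of 9 BTB members and of 11 of 25 KRAB members. The ETS site stood in 20 of the 66 (30.3%), in 12 of 25 KRAB promoters (48%) and in 8.82% of all promoters. The *ZNF143* core stood in 5 (7.58%) against 2.64%, the *ZEB1* E-box in 8 (12.1%) against 17.5% and the androgen receptor hexamer in 5 (7.58%) against 12.4%. The median GC content was 63.2% in the members and 58% in all promoters. These matches are a description of the letters in a window of 250 bases.

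Of the 72 members, 7 (9.72%) changed at the thresholds of the study, an adjusted p under 0.05 with a change of more than 2-fold (limma, Benjamini-Hochberg adjustment over all clusters). *ZBTB39*, *ZNF215*, *ZBTB8B* and *ZNF687* rose, and *ZBTB16*, *ZBTB7B* and *ZNF672* fell. The same thresholds were met by 8.47% of the 4072 named genes and by 3.77% of all clusters, so the share of zinc finger genes was close to that of named genes. By direction, 5.75% of named genes rose and 2.73% fell past both thresholds. At the adjusted p alone, 10 members passed (13.9%), against 12.5% of named genes (8.72% higher, 3.83% lower) and 5.79% of clusters. *ZNF503*, *ZNF740* and *ZNF384* are the further 3, all higher. The clones of the groups did not overlap in 14 members (19.4%), against 20.1% of named genes and 11.1% of clusters. The median log2 fold change (*HIST1H1A* over control) was 0.08 over the members, 0.03 over named genes and -0.01 over clusters, with 39 members higher and 33 lower. It was under 0.5 in size in 45 members. In 7 members both groups averaged under 3.27, the median over the whole table, and their fold changes come from dim signals.

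**Figure D1:**
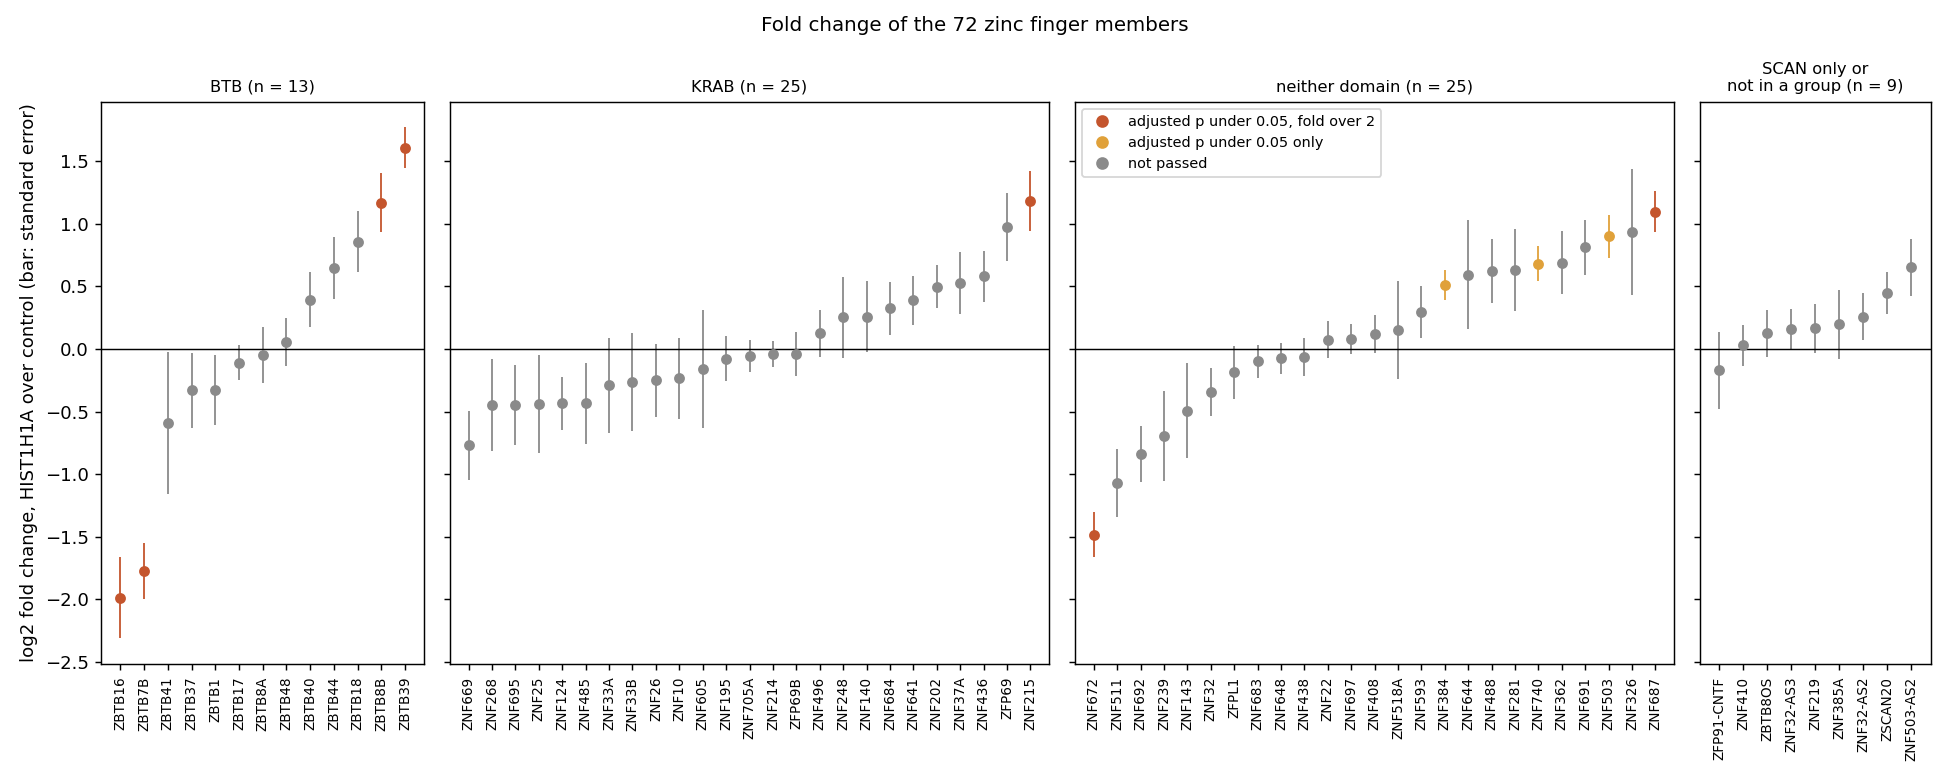
Log2 fold change of *HIST1H1A* over control clones for each of the 72 members, in panels by domain, with the standard error of the limma fit as a bar. The 3 falls past both thresholds lie between -1.99 and -1.48, the 4 rises between 1.10 and 1.61, and the single KRAB gene among them is *ZNF215*.

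BTB zinc fingers held 4 of the 7 changed genes. Of 13 measured, 2 rose, 2 fell and 9 did not pass (30.8% past the adjusted p, against 12.5% of named genes), with a median log2 fold change of -0.05. This is a description of 13 genes, and the difference in share has no test. *ZBTB16* encodes PLZF, a repressor that acts in the mouse germ line and innate lymphocytes and is fused to the retinoic acid receptor alpha in some leukemias. Its log2 signal was 6.08, 6.87, 5.36 and 6.83 in control clones 3, 4, 8 and 9 and 4.24, 4.21, 4.13 and 4.60 in *HIST1H1A* clones 2, 8, 9 and 10. All *HIST1H1A* clones lay below all control clones, although the control clones spread by an SD of 0.72. The fall was 3.97-fold (log2 fold change -1.99, standard error 0.32, adjusted p = 0.0080 from limma).

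*ZBTB7B* encodes ThPOK, which in the mouse commits T cells to the CD4 lineage and represses genes through its BTB domain. Its log2 signal was 7.20, 6.85, 6.38 and 6.44 in control clones 3, 4, 8 and 9 and 4.79, 4.98, 5.35 and 4.67 in *HIST1H1A* clones 2, 8, 9 and 10. The groups lay 1.03 apart at their nearest clones. It was 3.42-fold lower with *HIST1H1A* (log2 fold change -1.77, standard error 0.22, adjusted p = 0.0020 from limma).

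*ZBTB39*, a BTB factor with little known of its targets, had log2 signals of 6.03, 6.16, 6.49 and 6.17 in control clones and 7.67, 7.67, 8.19 and 7.75 in *HIST1H1A* clones, in the same order of clones. The nearest clones of the groups were 1.17 apart. The rise was 3.05-fold (log2 fold change 1.61, standard error 0.16, adjusted p = 0.00065 from limma), the lowest adjusted p among the members. *ZBTB8B* stood at 4.33, 3.58, 3.49 and 3.25 in control clones and at 4.97, 5.03, 4.79 and 4.51 in *HIST1H1A* clones. The groups were apart by 0.18 at their nearest, between control clone 3 and *HIST1H1A* clone 10. It rose 2.24-fold (log2 fold change 1.16, standard error 0.24, adjusted p = 0.022 from limma). In 6 of 16 other settings it no longer passed (highest adjusted p 0.086, with the methods' t-test), among them those without control clone 4 or 8 or without *HIST1H1A* clone 2, 8 or 9 (limma, adjusted p between 0.060 and 0.069).

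The 9 BTB members that did not pass ranged from -0.59 to 0.86 on the log2 scale of fold change. *ZBTB18*, a repressor needed in the developing cortex, stood at 4.04, 3.70, 3.76 and 3.92 in control clones and at 5.48, 4.52, 4.37 and 4.48 in *HIST1H1A* clones. Its groups did not overlap, but the spread among *HIST1H1A* clones (SD 0.52, with clone 2 highest) left an adjusted p of 0.091 (limma, log2 fold change 0.86). *ZBTB44* had a log2 fold change of 0.64 (adjusted p = 0.24 from limma) and *ZBTB40* of 0.39 (adjusted p = 0.50 from limma). *ZBTB17* encodes MIZ1, through which MYC represses cell cycle inhibitors. It lay between 5.68 and 6.21 in control clones and between 5.65 and 5.91 in *HIST1H1A* clones, so the groups overlapped almost wholly (log2 fold change -0.11, standard error 0.14). *ZBTB48*, a telomere-binding factor, *ZBTB1*, *ZBTB8A* and *ZBTB37* also overlapped, with log2 fold changes between -0.33 and 0.06. *ZBTB41* was at -0.59 with a standard error of 0.57, with control clone 9 at 5.59 and the other control clones between 2.72 and 3.35.

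**Figure D2:**
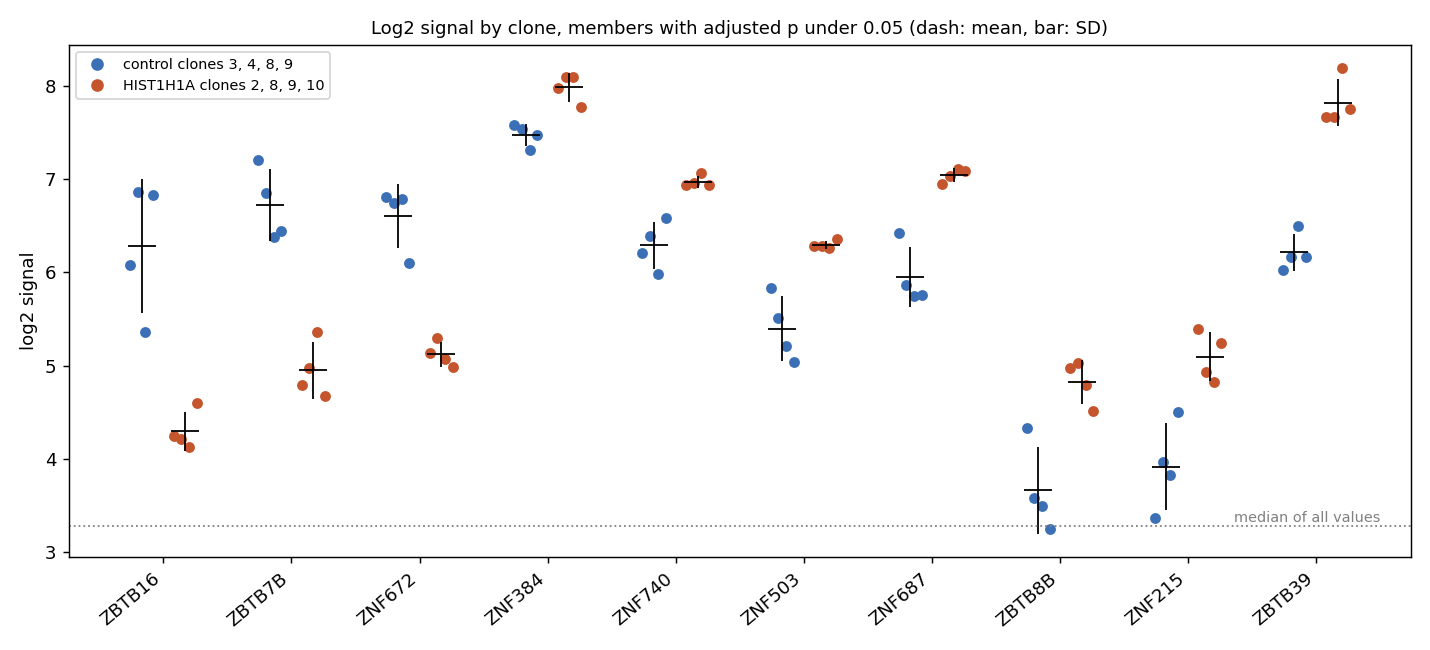
Log2 signal of each clone for the 10 members with an adjusted p under 0.05, with a dash for the group mean and a bar for the SD (n = 4). In each gene every clone of one group lies on the same side of all clones of the other, and the control clones of *ZBTB8B*, at 3.25 to 4.33, and of *ZNF215*, at 3.36 to 4.50, lie nearest the median of all values.

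Among the 25 members with neither domain, 4 rose, 1 fell and 20 did not pass (20% past the adjusted p, against 12.5% of named genes). *ZNF672*, of which little is known, had log2 signals of 6.81, 6.74, 6.78 and 6.10 in control clones 3, 4, 8 and 9 and 5.14, 5.30, 5.07 and 4.98 in *HIST1H1A* clones 2, 8, 9 and 10. Control clone 9 was the lowest of its group and still lay above each *HIST1H1A* clone. The fall was 2.80-fold (log2 fold change -1.48, standard error 0.18, adjusted p = 0.0017 from limma), and 3.15-fold without control clone 9 (adjusted p = 0.00036 from limma).

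*ZNF687* binds *ZNF592* and *ZMYND8* in a chromatin complex and is mutated in a form of Paget disease of bone. It stood at 6.42, 5.86, 5.75 and 5.75 in control clones and at 6.94, 7.04, 7.10 and 7.08 in *HIST1H1A* clones. The *HIST1H1A* clones differed among themselves by an SD of 0.07, and the control clones by 0.32. The rise was 2.14-fold (log2 fold change 1.10, standard error 0.16, adjusted p = 0.0052 from limma).

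*ZNF503*, a corepressor of the NET family that acts in limb and striatal development of chick and mouse embryos, stood at 5.83, 5.51, 5.21 and 5.04 in control clones and at 6.28, 6.29, 6.26 and 6.36 in *HIST1H1A* clones. Here too the *HIST1H1A* clones were close together (SD 0.045, against 0.35 in control clones). It rose 1.87-fold (log2 fold change 0.90, standard error 0.17, adjusted p = 0.017 from limma), and did not pass without *HIST1H1A* clone 9 or 10 (limma, adjusted p = 0.053 and 0.058). *ZNF503-AS2*, an antisense RNA of the same locus, was at 0.65 on the same scale with overlapping groups (adjusted p = 0.18 from limma).

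*ZNF740* was at 6.21, 6.39, 5.98 and 6.58 in control clones and at 6.93, 6.95, 7.06 and 6.93 in *HIST1H1A* clones, and it rose 1.60-fold (log2 fold change 0.68, standard error 0.14, adjusted p = 0.025 from limma). *ZNF384*, a factor that binds runs of A and whose gene is rearranged in acute leukemia, stood at 7.58, 7.54, 7.31 and 7.47 in control clones and at 7.98, 8.10, 8.10 and 7.77 in *HIST1H1A* clones. The groups were apart by 0.19 and the rise was 1.42-fold (log2 fold change 0.51, standard error 0.12, adjusted p = 0.045 from limma). The second cluster of *ZNF384* had a log2 fold change of 0.20 (adjusted p = 0.76 from limma). In 12 of 16 other settings *ZNF384* no longer passed (highest adjusted p 0.32), and in 8 of them *ZNF740* (highest adjusted p 0.086). Leaving out any 1 clone but *HIST1H1A* clone 10 lost *ZNF384* (limma, adjusted p between 0.066 and 0.14), and leaving out control clone 3 or 4 or any 1 of the *HIST1H1A* clones lost *ZNF740* (limma, adjusted p between 0.056 and 0.086).

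*ZNF511* did not pass on all 8 arrays (log2 fold change -1.07, standard error 0.27, adjusted p = 0.062 from limma). Its log2 signal was 8.45, 8.37, 8.35 and 7.32 in control clones 3, 4, 8 and 9 and 7.00, 7.46, 7.02 and 6.72 in *HIST1H1A* clones. Control clone 9 fell among the *HIST1H1A* clones, and without it the gene was 2.53-fold lower (adjusted p = 0.0049 from limma). In 12 of 16 other settings *ZNF511* did not pass, among them those without control clone 3, 4 or 8 (limma, adjusted p between 0.14 and 0.16). *ZNF143*, an activator bound at many promoters and at loops of chromatin, was at -0.49 (standard error 0.38), with control clones from 4.96 to 6.68 and *HIST1H1A* clones from 4.61 to 5.83. *ZNF281*, a factor of pluripotent cells that is also tied to epithelial to mesenchymal transition, was at 0.63 (standard error 0.33, adjusted p = 0.45 from limma), with 4.61 to 5.66 in control clones and 5.19 to 6.51 in *HIST1H1A* clones. Both overlapped between the groups. *ZNF683*, in the mouse a factor of tissue-resident T cells, and *ZNF22* and *ZNF697* had log2 fold changes between -0.10 and 0.08.

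Among the 25 KRAB members, 1 rose, 0 fell and 24 did not pass (limma, 4% past the adjusted p against 12.5% of named genes), with a median log2 fold change of -0.06 and a range from -0.77 to 1.18. At an unadjusted p under 0.05 limma counted 4 higher and 1 lower of the 25, where 25.9% of named genes lay under it in either direction, and the methods' t-test passed 0 of the 25 after adjustment. *ZNF215*, an imprinted gene of the Beckwith-Wiedemann region of 11p15, stood at 3.36, 3.97, 3.83 and 4.50 in control clones and at 5.39, 4.93, 4.82 and 5.24 in *HIST1H1A* clones. The nearest clones were 0.32 apart. It rose 2.27-fold (log2 fold change 1.18, standard error 0.24, adjusted p = 0.024 from limma). In 6 of 16 other settings it no longer passed (highest adjusted p 0.092), among them those without control clone 4 or 8 or without *HIST1H1A* clone 2, 8 or 10 (limma, adjusted p between 0.051 and 0.078).

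The groups did not overlap in 3 of the 25 KRAB members, against 20.1% of named genes. Besides *ZNF215* these were a pair of genes that did not pass. *ZFP69*, whose mouse counterpart is linked to lipid storage and diabetes, was at 3.24, 2.58, 2.88 and 3.02 in control clones and at 4.71, 3.51, 3.66 and 3.72 in *HIST1H1A* clones (log2 fold change 0.97, adjusted p = 0.088 from limma). Its control mean of 2.93 lies below the median of all values. *ZNF202*, a repressor of lipid metabolism genes, was at 4.33, 4.59, 4.62 and 4.84 in control clones and at 5.51, 4.98, 4.91 and 4.97 in *HIST1H1A* clones (log2 fold change 0.50, adjusted p = 0.18 from limma). In both, *HIST1H1A* clone 2 was the highest. *ZNF10* (KOX1), the source of the KRAB domain used in engineered repressors, was between 2.80 and 2.92 in control clones 3, 4 and 8, at 4.24 in control clone 9 and between 2.55 and 3.18 in *HIST1H1A* clones. Of the 4 members with a SCAN domain, all had a higher mean with *HIST1H1A*, from 0.12 in *ZNF496* to 1.18 in *ZNF215*, and *ZSCAN20* lay between at 0.45 (adjusted p = 0.22 from limma).

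Within the control group, the KRAB members stood high in clone 9. There, 22 of the 25 lay above the mean of the other 3 control clones, 19 of them by over 0.5, with a median difference of 0.90 on the log2 scale. Over the 4072 named genes the same median was -0.04, with 1851 above and 882 of them by over 0.5. That last count was the largest of the 8 clones over named genes, the next being 503 in *HIST1H1A* clone 2. Control clone 9 was the highest control clone in 21 of 25 KRAB members (84%), against 31.5% of named genes, and the highest of all 8 clones in 16 (64%), against 19.4%. This is a description of 1 clone, chosen after its values were seen, and it has no test.

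**Figure D3:**
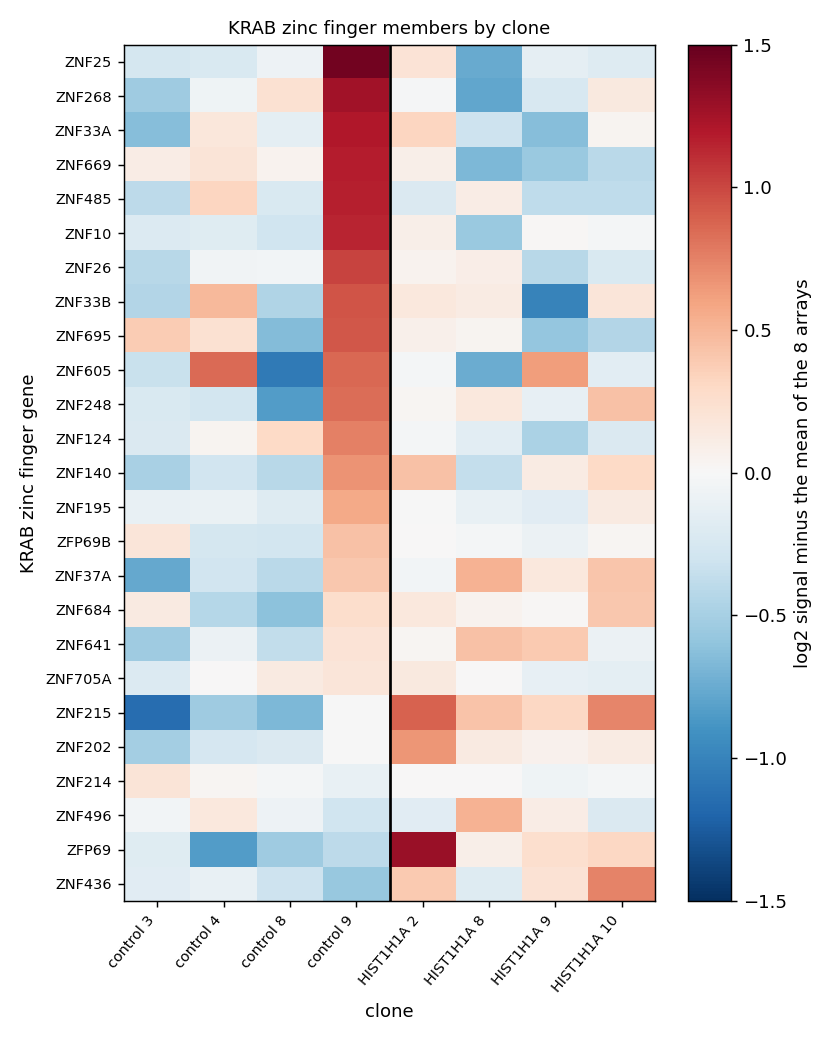
Log2 signal of the 25 KRAB members in each clone, as the difference from the gene's mean over the 8 arrays (color), in order of the value in control clone 9. Control clone 9 is the highest of the 8 clones in 16 of the 25 genes, and the vertical line parts the control from the *HIST1H1A* clones.

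The difference in control clone 9 was smaller in the other groups of members. Its median was 0.30 in the 13 BTB members, where control clone 9 was the highest control clone in 6, and -0.04 in the 25 with neither domain, where it was the highest in 10. It was -0.12 over 23 C2H2 factors of other families and 0.28 over 9 corepressors of KRAB and BTB factors. The largest single differences were 2.48 in *ZBTB41*, 1.75 in *ZNF518A*, 1.65 in *ZNF326*, which couples splicing to RNA polymerase II in the DBIRD complex, 1.63 in *ZNF25* and 1.55 in *ZNF644*, a partner of the histone methyltransferases G9a and GLP. So the high values of control clone 9 were not limited to KRAB genes. *ZNF644* stood at 4.76, 5.12, 4.24 and 6.25 in control clones and at 5.80, 4.98, 5.60 and 6.34 in *HIST1H1A* clones. In *ZNF25* the control clones were at 3.38, 3.41, 3.56 and 5.08, and the *HIST1H1A* clones between 2.88 and 3.85.

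**Figure D4:**
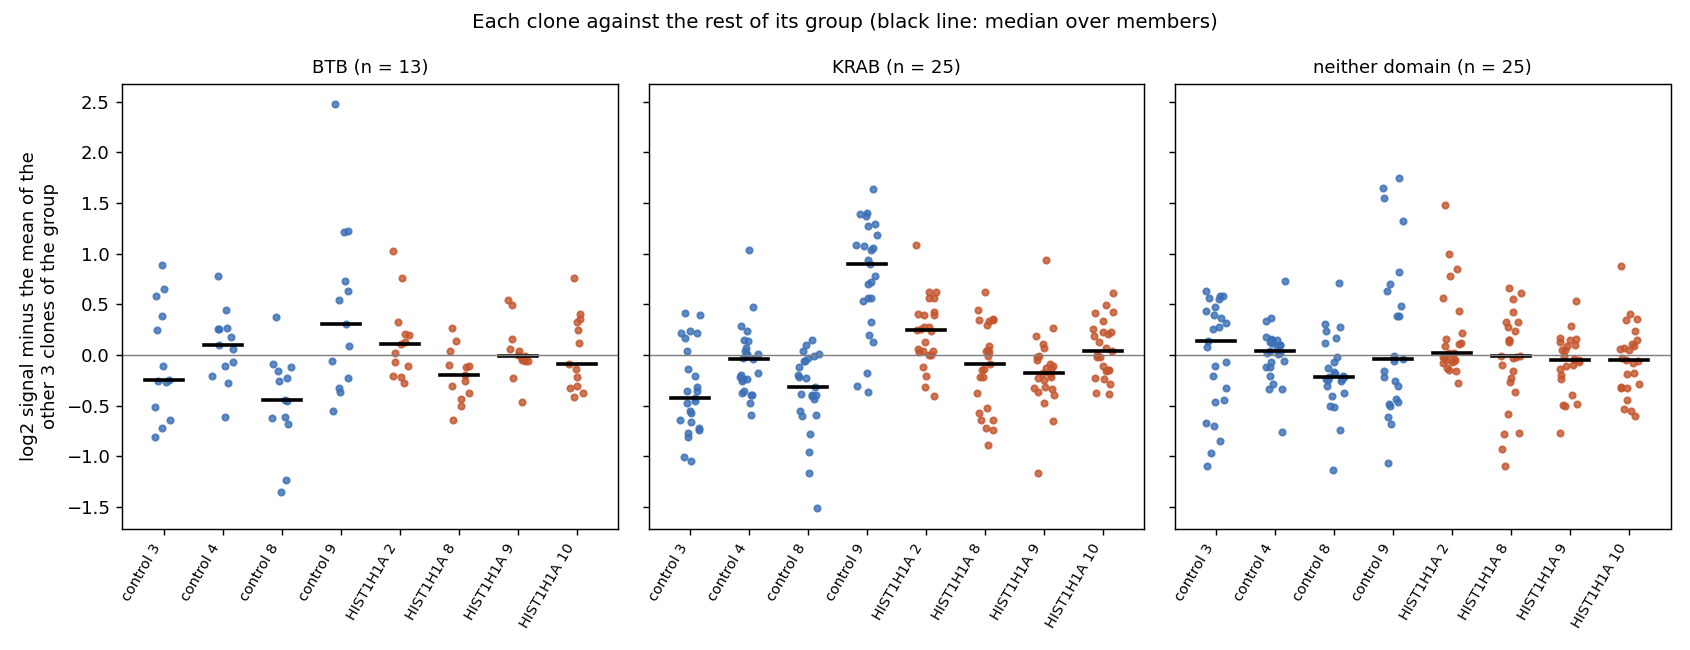
Difference of each clone's log2 signal from the mean of the other 3 clones of its group, 1 point a member, in panels by domain, with a black line at the median over members. The median of the KRAB members is 0.90 in control clone 9 and lies between -0.43 and 0.24 in the other 7 clones.

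Among the *HIST1H1A* clones, clone 2 was the highest of its group in 12 of 25 KRAB members (48%, against 31.2% of named genes), with a median difference of 0.24 from the other 3. The median SD between clones was 0.38 over the members in the control group, 0.25 without clone 9, and 0.26 in the *HIST1H1A* group. The SD of the control clones was the larger in 55 of 72 members, against 69.0% of named genes. Without control clone 9 the log2 fold change of 12 members turned in sign, the KRAB median became 0.10 with 17 of 25 higher, and 22 members (30.6%) did not overlap between the groups, against 27.6% of named genes. The count of members past both thresholds became 8. For this count and for the turns of sign, the shares of named genes are not given here.

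Members of 1 locus were compared, since zinc finger genes lie in runs of related copies. At 12q24.33 all 5 measured KRAB genes (*ZNF605*, *ZNF26*, *ZNF140*, *ZNF10* and *ZNF268*) were highest of all 8 clones in control clone 9. Their median difference from the mean of the other 3 control clones was 1.18. In *ZNF605* control clone 4 was nearly as high, at 5.146 against 5.151. *ZNF268* stood at 5.18 in control clone 9 and at 3.38, 3.84 and 4.15 in control clones 3, 4 and 8. Its *HIST1H1A* clones were at 3.89, 3.13, 3.67 and 4.06. Between the groups 0 of the 5 passed in limma (0 at an unadjusted p under 0.05, and 0 with the methods' t-test), with a median log2 fold change of -0.24 (0.10 without control clone 9). In the run from 10p11 to 10q11, control clone 9 was the highest control clone in 9 of 11 genes and the highest of all 8 clones in 8. The exceptions among the control clones were *ZNF488* and *ZNF22*, the latter at a low signal, between 2.17 and 2.34 in control clones. Over all 8 clones *ZNF37A* was an exception too, at 4.811 in control clone 9 and at 4.921 and 4.818 in *HIST1H1A* clones 8 and 10. Between the groups 0 of the 11 passed in limma (1 at an unadjusted p under 0.05, and 0 with the methods' t-test). Of named genes, 12.5% passed in limma and 25.9% lay under an unadjusted p of 0.05. Whether the 5 genes of 12q24.33 or these 11 differ from those shares was not tested.

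At 1q44, 5 of 6 measured genes had a lower mean with *HIST1H1A* and 1 fell, *ZNF672* (16.7% past the adjusted p, against 12.5% of named genes). At an unadjusted p under 0.05 limma counted 3 lower and 0 higher of the 6, where 25.9% of named genes lay under it in either direction. The methods' t-test passed 1 of the 6 after adjustment. *ZNF692* stood at 7.67, 7.37, 7.08 and 6.91 in control clones and at 6.36, 6.91, 6.04 and 6.36 in *HIST1H1A* clones, overlapping by 1 clone on each side (log2 fold change -0.84, standard error 0.22, adjusted p = 0.075 from limma). The KRAB genes *ZNF669*, *ZNF695* and *ZNF124* were at -0.77, -0.45 and -0.44, and *ZNF496* at 0.12, and none of these passed. *SH3BP5L* and *PGBD2*, which lie on either side of *ZNF672* and *ZNF692*, were at -0.36 and -0.76 and did not pass. At 11p15, *ZNF215* was the only one of 4 to pass (25% past the adjusted p, against 12.5% of named genes).

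Neighbouring members were set against each other in 16 pairs with at most 4 genes between them, chosen after their values were seen. For each pair the difference of log2 signals within an array was compared between the groups by a two-sided exact permutation test, whose smallest p with 4 against 4 arrays is 0.029. *ZNF215* and *ZNF214* differed by 1.22 in log2 fold change (exact p = 0.029, adjusted p = 0.11), and *ZNF214* lay between 2.96 and 3.26 in every clone, a low signal. *ZFP69* exceeded *ZFP69B* by 1.01 (exact p = 0.029, adjusted p = 0.11). *ZBTB8B* exceeded *ZBTB8A*, which stood between 4.73 and 5.67, by 1.21 (exact p = 0.086, adjusted p = 0.20). *ZNF672* and *ZNF692*, which both had lower means, differed by 0.65 and *ZNF140* and *ZNF10* by 0.49 (each exact p = 0.029, adjusted p = 0.11). No pair passed after Benjamini-Hochberg adjustment over the 16, and the smallest p of the design limits what could pass.

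**Figure D5:**
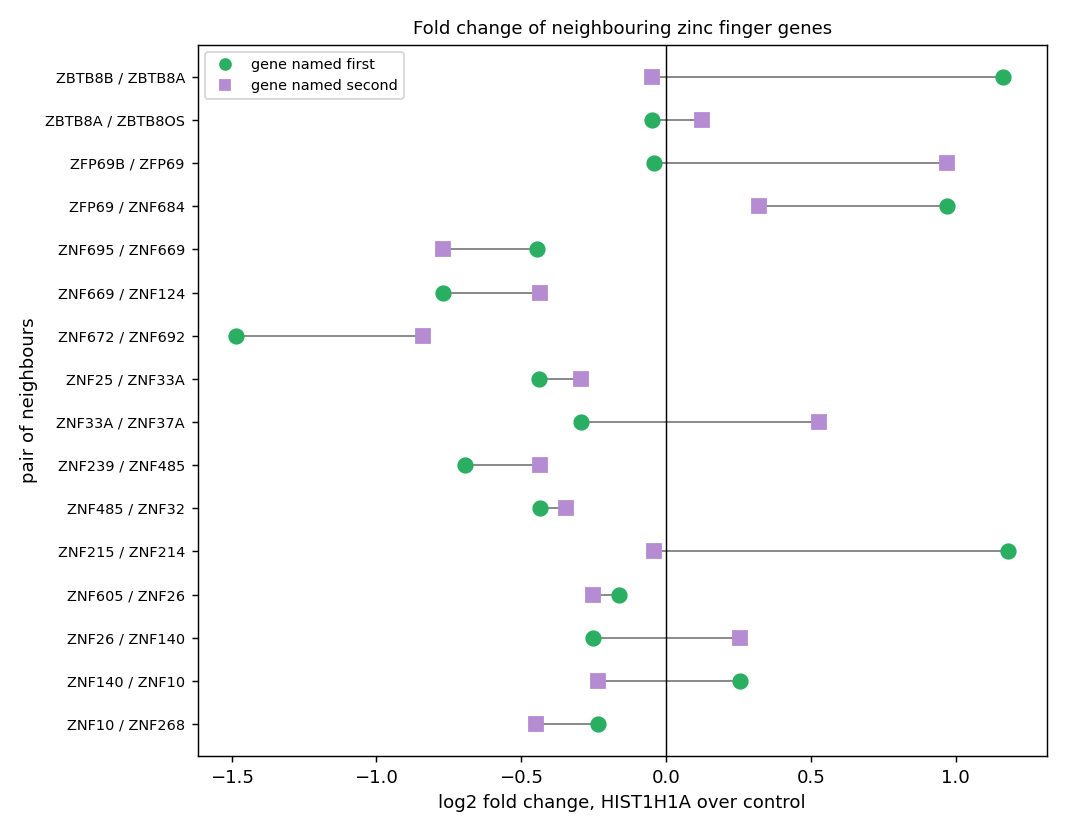
Log2 fold change (*HIST1H1A* over control) of both genes in each of 16 pairs of neighbouring members, with a line from the gene named first (circle) to the gene named second (square). The widest gaps are 1.22 for *ZNF215* and *ZNF214* and 1.21 for *ZBTB8B* and *ZBTB8A*, where the second gene of each pair lies near 0.

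Among protein-coding genes within 3 places of a changed member, those measured did not pass, and for *ZNF687* none was measured here. Of named genes 12.5% passed, and whether these few genes differ from that share was not tested. Those around *ZBTB7B* (*FLAD1*, *LENEP*, *DCST2* and *DCST1*) had log2 fold changes between -0.17 and 0.12 and did not pass. Beside *ZBTB39*, *TAC3* was at 0.18 and *MYO1A* at 0.05, while *NEMP1*, at 1.13, missed the threshold (limma, adjusted p = 0.13). *NNMT*, beside *ZBTB16*, was at -0.51 and did not pass.

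*ZNF410*, known in erythroid cells as an activator of *CHD4*, the ATPase of the NuRD corepressor, lay between 4.62 and 5.30 in control clones and between 4.75 and 5.17 in *HIST1H1A* clones (log2 fold change 0.03, standard error 0.16). This pair was chosen after the values were seen. *CHD4* stood at 8.50 ± 0.22 (SD, n = 4) in control and at 9.40 ± 0.24 (SD, n = 4) in *HIST1H1A* clones, a rise of 1.86-fold (limma, adjusted p = 0.014). Of the 9 measured corepressors of KRAB and BTB factors, *CHD4* and *GATAD2B*, another NuRD subunit, rose and 7 did not pass (22.2% past the adjusted p, against 12.5% of named genes), *HDAC1*, *RBBP4* and *CBX5* among them, with a median log2 fold change of 0.45.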

How the data were processed

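One array (Affymetrix Human Gene 2.0 ST) was run for each of 8 LNCaP clones, 4 control and 4 *HIST1H1A*. For each transcript cluster the authors deposited a log2 signal, used as it was. The submitters' notes name Partek. Its version and its steps of summarization and normalization were not given in the sources used here. Of 16377 clusters, 4247 carried 1 gene symbol from the platform's annotation, for 4072 genes, and 12130 carried none here. Since control probes of the array could not be separated from these, every cluster was tested.

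All 8 arrays entered 1 fit without covariates in limma 3.58.1 (lmFit, eBayes; R 4.3.3), and p-values were adjusted over all clusters. Rose and fell stand for an adjusted p under 0.05, and changed adds a fold change over 2. Pairs of neighbours were tested with scipy 1.17.1. The code was tested on simulated arrays. The members, gene lists and tests were chosen with earlier results of these data known. Genes named were those changed, those past the adjusted p, the 3 brightest members (*ZNF384*, *ZNF511* and *ZBTB44*), the BTB members, listed loci and listed factors of known function. *ZNF365* was not among the members, and *ZFP91* only as its read-through transcript. Members with a high value in control clone 9 and the genes flanking changed members were named after their values were seen. Gene order came from RefSeq, and symbols were not mapped to coordinates beyond the promoters shown.

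The alternatives were the methods' t-test (a figure legend of the paper names it for repeated experiments, and it is applied to arrays here by inference), limma with trend and robust settings, quantile normalization, median centring, named clusters only, a filter on dim clusters, the mean over a gene's clusters, a block on clone number, each array left out, limma's test against a fold of 2 and array weights. The number of arrays limits the precision.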

Additional observations from a re-analysis of the deposited data

Results flagged for a closer look

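By Dixon's criterion, 1 clone stood apart from the other 3 of its group in 7 of the 50 sets of values examined for named members. Chance alone gives about 1 in 20, here 2.5. Control clone 9 stood apart in *ZNF672*, at a log2 signal of 6.10 where the nearest control clone was at 6.74, in *ZNF511*, at 7.32 against 8.35, and in *ZNF10*, at 4.24 against 2.92. It was thus the lowest control clone in *ZNF672* and *ZNF511* and the highest in *ZNF10*. In *ZNF687*, control clone 3 was at 6.42 against 5.86. *HIST1H1A* clone 2 stood apart upward in *ZBTB18*, at 5.48 against 4.52, and in *ZNF202*, at 5.51 against 4.98. *ZBTB39* was at 8.19 in *HIST1H1A* clone 9 against 7.75.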

How the results depend on the processing

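The 7 changed members became 4 with the methods' t-test and 0 when limma tested against a fold of 2 (4 at an unadjusted p under 0.05), and lay between 5 and 8 when 1 array was left out. The 10 members past the adjusted p became 4 with the methods' t-test and lay between 6 and 10 when 1 array was left out, with 6 without control clone 4 and 6 without *HIST1H1A* clone 9. The 14 members with groups not overlapping became 15 to 22 with 1 array left out (22 without control clone 9), and the median log2 fold change lay between 0.02 and 0.10. With fewer arrays, groups of any gene overlap less easily. Of named genes, 20.1% did not overlap on all arrays and 27.6% without control clone 9. Array weights, chosen after seeing the data, gave 9 changed members and 13 past the adjusted p, and named clusters only 8 and 15, where fewer clusters were tested. The shares of named genes past the thresholds in these settings are not given here. The counts therefore cannot be read as particular to zinc finger genes.

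Clones numbered 8 and 9 exist in both groups but share only the number (r of their deviations from group means, 0.07 and -0.22). On those 4 arrays a replicate block gave 0 changed members (14 over 2-fold at an unadjusted p under 0.05) and 0 past the adjusted p, and the fit without the block gave 0 (13 so) and 0, with 39 members not overlapping (54.2%, against 52.3% of named genes on these arrays). There *ZBTB17* was at 0.11 and *ZNF281* at -0.18, both turned in sign.

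Of the 10 members past the adjusted p, *ZBTB7B*, *ZNF672*, *ZNF687* and *ZBTB39* passed in each of the 16 settings with 7 or 8 arrays and a test against no change. *ZBTB16* failed in 1, the methods' t-test, with adjusted p = 0.052, and *ZNF503* in 3, up to 0.058. None of the 10 turned in sign in any setting. *ZBTB48*, near 0 throughout, was at -0.0034 with quantile normalization and at -0.051 with array weights. Without control clone 9, *ZBTB41* was at 0.028, *ZBTB8A* at 0.088, *ZFP91-CNTF* at 0.059 and *ZNF10* at 0.11. With 1 array left out, log2 fold changes reached from -0.10 to 0.20 in *ZBTB48*, -0.23 to 0.09 in *ZBTB8A*, -0.93 to 0.03 in *ZBTB41*, -0.37 to 0.11 in *ZNF10* and -0.42 to 0.06 in *ZFP91-CNTF*. The cause of these differences was not tested. Depth is not defined for arrays. Below a log2 signal of about 3.27, where no background level was used, differences may be understated.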

Other observations

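Zinc finger factors outside the 4 letter codes were measured in 23 of 79 listed cases. Among these, 5 rose, 1 fell and 17 did not pass (26.1% past the adjusted p, against 12.5% of named genes), with a median log2 fold change of 0.45, against 0.08 over the 72 members and 0.03 over named genes. *KLF12*, a repressor of the Krüppel-like family, was at 4.14 ± 0.34 (SD, n = 4) with the control vector and at 6.93 ± 0.12 (SD, n = 4) with *HIST1H1A*, a rise of 6.94-fold (adjusted p = 6.0e-05 from limma). *ZIC2* rose 2.99-fold and *ZIC5*, a neural factor like it, 2.74-fold (adjusted p = 0.0022 and 0.00073 from limma). *ZEB1*, a repressor of epithelial genes, rose 1.85-fold and *KLF5*, a factor of basal epithelia, 1.60-fold (adjusted p = 0.029 and 0.032 from limma). *CASZ1* was 3.28-fold lower (adjusted p = 0.014 from limma), with an SD of 0.71 between control clones. *KLF6* and *SP1* were at 0.95 and 0.77 and did not pass.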
